A study of Mus musculus with 6 samples.

Results

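The genes described here encode the nuclear pore and the machinery that carries proteins and RNA through it. They were chosen by symbol, as the rows of the deposited table named Nup with a number, Kpna or Kpnb, Xpo, Ipo or Tnpo, together with Ran, Ranbp1, Ranbp2, Rangap1, Rcc1, Tpr and Cse1l. These were 51 of the 53735 genes in the table. Of these, 50 averaged 10 or more normalized counts (reads scaled to equal depth) across the 6 libraries, the filter used for every test. Nup62cl, a paralog of the channel gene Nup62, was below it, with 0 reads in the 3 liver libraries and 3 reads in the bone marrow libraries, all of them in replicate 1.

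Transcripts were measured by RNA sequencing in leukemia stem cells, leukemia cells able to start the disease anew. The cells came from untreated C57 mice, labelled male, 13 days after leukemia cells were transplanted. There were 3 libraries from liver and 3 from bone marrow, and the comparison asks how the cells in the liver differ from those in the marrow. The sources used here state neither the genotype of the leukemia, nor the markers used to isolate the cells, nor the number of mice. Values with 3 numbers per tissue below are replicates 1, 2 and 3 in that order.

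The nuclear pore is a ring of many protein copies set in the nuclear envelope. Its scaffold is built from Y-shaped complexes on both faces and an inner ring between them, and its channel is filled with proteins rich in phenylalanine-glycine repeats that hold back large molecules. Importins and exportins carry cargo through that barrier. The direction is set by the small GTPase Ran, which is kept bound to GTP in the nucleus by Rcc1 and to GDP in the cytoplasm by Rangap1. Dividing cells also use many of these proteins in spindle assembly and in rebuilding the nuclear envelope after mitosis, and inhibitors of the exportin Xpo1 are used against blood cancers.

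The libraries held 13.8, 9.73 and 11.4 M reads in liver and 15.4, 16.2 and 18.5 M in bone marrow, so that liver values rest on fewer reads. The replicates are labelled technical and none is tied to an animal. The p-values reflect library-to-library spread, and how much of it is technical is not known. Sex-linked transcripts set replicate 1 apart from replicate 2 in both tissues and go against the label. Xist, an RNA of female cells, had normalized counts of 6229, 1.42 and 2425 in liver against 4860, 4.28 and 2486 in bone marrow. The summed level of 4 Y-linked genes was 0, 2675 and 1634 in liver against 145, 2987 and 1553 in bone marrow. Replicate 3 held both kinds of transcript, at levels between those of replicates 1 and 2 in both tissues. The replicates thus stood in the same order by these levels in liver and bone marrow. Whether replicate 3 is independent of the others or mixes their material is not known and was not tested. If it were a mix, the SD, SE and p-values below would understate the variation. For this reason n = 3 below counts libraries, not animals. The main limma fit does not use the replicate numbers. The 6 stem and progenitor genes were present in every library, with sums of 8105, 7801 and 7991 in liver against 9654, 8931 and 9012 in bone marrow. None of the 6 passed in limma, edgeR or DESeq2, and at an unadjusted p under 0.05 in limma 2 were higher and 2 lower. Cd34 had normalized counts of 1063, 1048 and 1143 in liver against 2148, 1179 and 1551 in bone marrow, with all liver libraries below. Kit had normalized counts of 658, 652 and 647 in liver against 654, 419 and 462 in bone marrow. Of 10 hepatocyte genes, 6 (Alb, Apoc3, Ttr, Serpina1a, Fgb and Tat) had no read in any library, and the summed level of the list was 2310 to 3064 in liver and 2674 to 5697 in bone marrow, most of it from Apoa1 (2285 to 3003 in liver and 2645 to 5659 in bone marrow). Of 5 Kupffer cell genes, 3 (Clec4f, Vsig4 and Cd5l) had no read, and their sum was 0 to 9.88 in liver and 0 to 2.97 in bone marrow. Over 9 neutrophil genes the summed level was 491 to 3752 in liver and 153 to 210 in bone marrow, and 2 of the 8 tested rose in limma and 4 in DESeq2. The sums over 8 basophil and mast cell genes were 18366 to 28176 in liver and 26818 to 31493 in bone marrow, and those over 7 erythroid genes 14033 to 14527 in liver and 18626 to 21221 in bone marrow. Of the basophil and mast cell genes 1 rose and 1 fell in limma, and 1 rose and 5 fell in DESeq2. Of the erythroid genes 1 fell in limma and 3 in DESeq2. Of all genes, limma called 0.420% higher and 0.594% lower, and DESeq2 1.92% higher and 2.43% lower. The 6 endothelial genes summed to 446 to 1399 in liver and 348 to 1093 in bone marrow, nearly all from Pecam1, with the defining gene Cdh5 at 0, and the 4 T and B cell genes to 2.41 to 5.93 in liver and 1.71 to 5.39 in bone marrow, with Cd3e at 0. The part of these other cell types in the values below was not tested.

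No member passed the limma test over all genes, but most stood slightly higher in liver. With limma on log2(normalized count + 1) and Benjamini-Hochberg adjustment over the 14298 genes tested, 0 of 50 members were higher and 0 lower at an adjusted p under 0.05, against 0.420% higher and 0.594% lower of all genes tested. The lowest adjusted p among members was 0.074. At an unadjusted p under 0.05, 16 members were higher and 1 was lower, which is 32% higher beside 7.65% of all genes, and 2% lower beside 8.04%. On the recovered reads, edgeR called 0 members in either direction, beside 0.371% of all genes higher and 0.574% lower. DESeq2 called 4 members higher (Ran, Xpo1, Kpnb1 and Ranbp1) and 0 lower, beside 1.92% of all genes higher and 2.43% lower. Quantile normalization called Ran alone higher, beside 0.511% of all genes, and weights per library called 14 members higher and 2 lower, beside 11.0% and 11.5% of all genes. With the replicate number as a term, limma called 3 members higher (Ran, Xpo1 and Ranbp1) and 0 lower, beside 1.41% and 2.26% of all genes. Whether libraries with the same number share an animal is not known. The fitted log2 fold change was above 0 for 38 members (76%), beside 48.4% of all genes, and its median over members was 0.10, ranging from -0.19 to 0.36. The median over all genes was -0.01.

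In 19 of the 50 members all liver libraries lay above all bone marrow libraries (38%), while this held for 11.4% of all genes tested. The opposite order held for 1 member, Ranbp2 (2%), and for 10.9% of all genes. The 19 were unevenly spread over the roles. All 4 Ran cycle genes were among them, as were 5 of 6 genes of the Y-shaped scaffold, 4 of 5 of the inner ring and 1 of 2 tested of the channel. Among carriers the count was 1 of 7 for importin alpha, 2 of 11 for the importin beta family and 1 of 7 for exportins. Without liver replicates 1, 2 and 3 in turn the count above was 20, 23 and 20 (40%, 46% and 40%), beside 19.3%, 17.6% and 14.8% of all genes. Without bone marrow replicates 1, 2 and 3 it was 23, 19 and 20 (46%, 38% and 40%), beside 16.1%, 15.8% and 14.5%. The opposite order held for 1 to 4 members with 1 library left out, beside 13.9% to 18.9% of all genes. With TMM factors the count above was 19 (38%, beside 10.9% of all genes), and with quantile normalization 19 (38%, beside 12.1%). After thinning to equal depth it was 18 (36%, beside 11.2%), and with both libraries numbered 3 left out 23 (46%, beside 18.4%). The members were chosen as a family with earlier results of these data known, and no test sets them against other gene families.

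**Figure D1:**
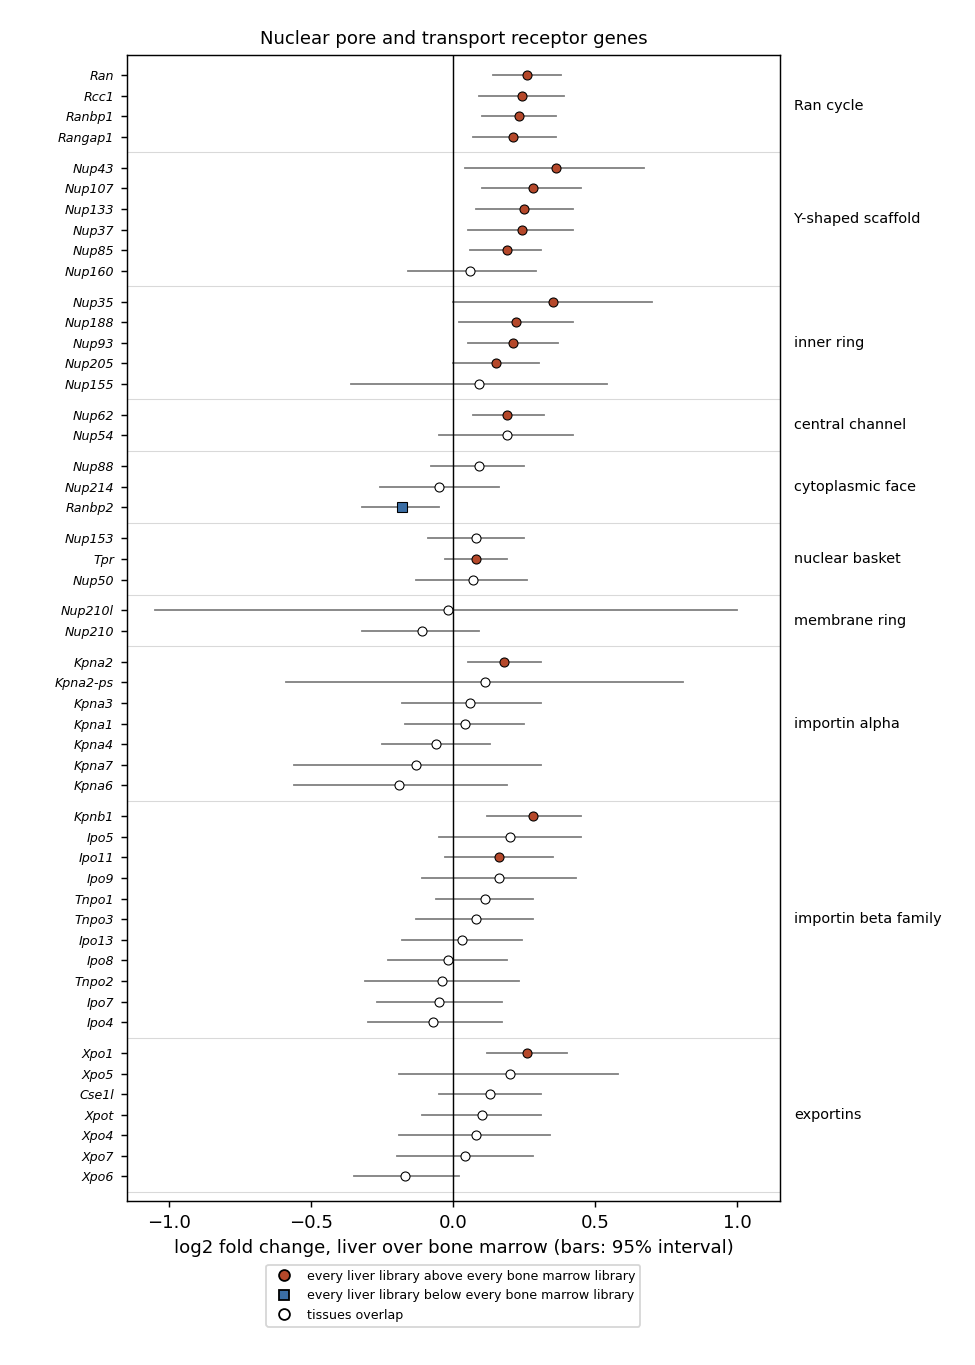
Log2 fold change of liver over bone marrow for the 50 tested members, grouped by role, with points for the fitted value and bars for its 95% interval (3 libraries per tissue). Filled circles mark the 19 members whose liver libraries all lie above the bone marrow libraries, the filled square marks Ranbp2, whose liver libraries all lie below, and open circles mark overlap. All 4 Ran cycle genes lie between 0.21 and 0.26, while importin alpha genes lie on both sides of 0.

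All 4 Ran cycle genes stood higher in liver without overlap, though none passed the test over all genes. Ran itself, the GTPase, had normalized counts of 8495, 9330 and 9093 in liver against 7239, 7575 and 7665 in bone marrow. The lowest liver library lay above the highest bone marrow library, and the means were 8972 ± 430 in liver and 7493 ± 224 in bone marrow (SD, n = 3 each). Its log2 fold change was 0.26 ± 0.053 (SE), a 1.2-fold higher level in liver, with a limma adjusted p of 0.074. Under the alternatives its adjusted p ran from 0.0019 (weights per library) to 0.88 (both libraries numbered 3 left out), and 5 of 20 passed. Ranbp1, which binds Ran-GTP and helps Rangap1 act on it, had normalized counts of 5934, 6570 and 6457 in liver against 5258, 5569 and 5319 in bone marrow. These values did not overlap either, and the log2 fold change was 0.23 ± 0.056 (SE, limma adjusted p = 0.11). In both genes liver replicate 1 was the lowest liver library. Without that library both passed, in a fit that called 1.45% of all genes higher. Neither passed when any other single library was left out, with limma adjusted p of 0.13 to 0.3 for Ran and 0.19 to 0.39 for Ranbp1.

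The 2 enzymes that act on Ran showed the same order of tissues at lower levels. Rcc1, the chromatin-bound exchange factor that loads Ran with GTP, had normalized counts of 1697, 1645 and 1639 in liver against 1440, 1331 and 1450 in bone marrow. Its liver libraries lay close together, and the log2 fold change was 0.24 ± 0.063 (SE, limma adjusted p = 0.13). Rangap1, the activator of GTP hydrolysis by Ran, had 3749, 3421 and 3398 in liver against 3081, 2917 and 3105 in bone marrow, a log2 fold change of 0.21 ± 0.060 (SE, limma adjusted p = 0.15). Here liver replicate 1 was the highest library, the reverse of Ran and Ranbp1. Rangap1 lies outside the rule for members given in full and was added after its values were seen. The summed level of the 4 genes was 20476 ± 553 normalized counts in liver and 17316 ± 268 in bone marrow (SD, n = 3 each), or 18.2% more in liver. In GENCODE M21, exons of Rcc1 share bases with Snhg3 and Gm17300, those of Ranbp1 with Trmt2a and Gm49776 and those of Rangap1 with Zc3h7b, so reads of these genes could be counted together.

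**Figure D2:**
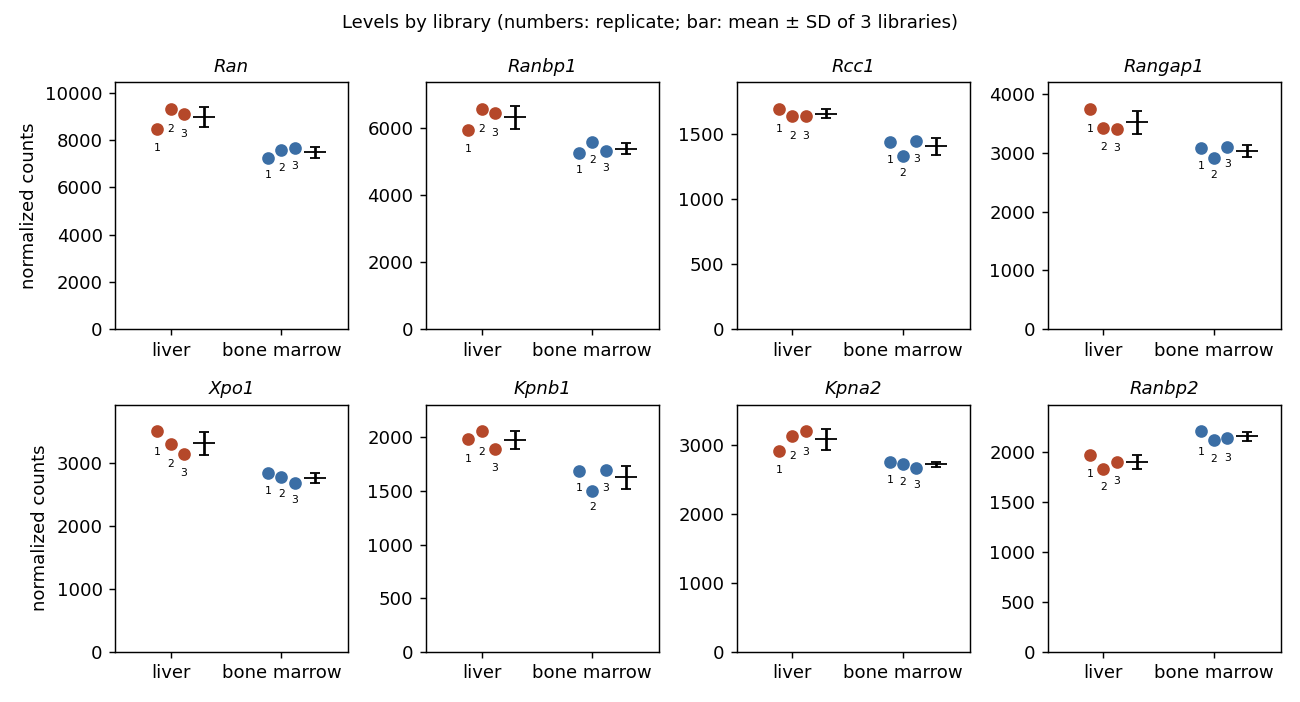
Normalized counts of 8 members in each library, with liver on the left, the replicate number under each point, and the mean ± SD of 3 libraries beside the points (linear axes from 0). In the first 7 genes the liver libraries all lie above the bone marrow libraries, and in Ranbp2 they all lie below, at 1828 to 1969 against 2122 to 2206.

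Promoter sequences are shown for the genes that led the list, Ran and Ranbp1 of the Ran cycle and the carriers Xpo1 and Kpnb1, because these stood higher in liver together. Each window holds 250 bases before and 50 after the RefSeq transcript start on GRCm38.p6, 5′ to 3′ on the gene's own strand. The Ran window is chr5:129019906-129020205 on the plus strand, that of Ranbp1 chr16:18248645-18248944 on the minus strand, that of Xpo1 chr11:23255791-23256090 on the plus strand and that of Kpnb1 chr11:97187843-97188142 on the minus strand. Capitals mark exact matches, on either strand, to the E-box CACGTG, the CCAAT box, the E2F motif TTTCCCGC or TTTGGCGC, the ETS motif CCGGAAG and the palindromic NRF1 motif, which is the first run of capitals in the Ran window.
Ran: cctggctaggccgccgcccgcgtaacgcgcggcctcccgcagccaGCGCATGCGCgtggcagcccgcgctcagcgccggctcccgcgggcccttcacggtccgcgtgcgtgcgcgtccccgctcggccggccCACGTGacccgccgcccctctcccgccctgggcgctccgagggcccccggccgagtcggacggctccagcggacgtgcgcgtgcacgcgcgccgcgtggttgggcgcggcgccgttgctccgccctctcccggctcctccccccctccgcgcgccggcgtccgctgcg
Ranbp1: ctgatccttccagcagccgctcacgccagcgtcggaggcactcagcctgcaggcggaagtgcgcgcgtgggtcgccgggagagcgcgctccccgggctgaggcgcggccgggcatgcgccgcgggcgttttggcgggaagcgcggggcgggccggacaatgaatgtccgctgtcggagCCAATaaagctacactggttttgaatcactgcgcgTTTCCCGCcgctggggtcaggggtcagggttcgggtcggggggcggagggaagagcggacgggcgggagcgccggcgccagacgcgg
Xpo1: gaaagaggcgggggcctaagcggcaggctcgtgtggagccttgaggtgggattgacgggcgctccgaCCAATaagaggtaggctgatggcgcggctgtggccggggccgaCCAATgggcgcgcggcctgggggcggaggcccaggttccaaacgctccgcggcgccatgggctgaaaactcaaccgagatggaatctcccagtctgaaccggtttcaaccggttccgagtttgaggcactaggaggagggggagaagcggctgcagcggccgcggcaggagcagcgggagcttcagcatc
Kpnb1: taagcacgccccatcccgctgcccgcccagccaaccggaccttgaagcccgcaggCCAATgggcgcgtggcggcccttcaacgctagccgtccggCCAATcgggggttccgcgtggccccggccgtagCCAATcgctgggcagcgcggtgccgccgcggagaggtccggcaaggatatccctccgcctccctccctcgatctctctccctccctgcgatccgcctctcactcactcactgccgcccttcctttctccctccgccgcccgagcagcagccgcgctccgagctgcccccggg

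None of the motifs marked was in all 4 windows, while GGGCGG, an SP motif searched but not marked, was. The Ran window held an NRF1 motif at position 46 and an E-box at position 133, counted from 1 at the 5′ end. That of Ranbp1 held a CCAAT box at position 179 and an E2F motif at position 214, while Xpo1 held CCAAT boxes at positions 68 and 111 and Kpnb1 at 56, 96 and 129. None of these matches overlap each other, and the windows of Rcc1 and Rangap1 held none of the motifs marked. Over the 40 members with a window, using the first window of each, an E-box was found in 9 (22.5%) beside 7.15% of all 32851 windows. The NRF1 motif was in 5 (12.5%, beside 0.971% of all windows), the CCAAT box in 21 (52.5%, beside 37.4%), the ETS motif in 6 (15%, beside 8.86%), TTTCCCGC in 2 (5%, beside 1.07%) and TTTGGCGC in 0 (beside 0.514%). GGGCGG was in 28 (70%, beside 35.7%) and TATAAA in 3 (7.5%, beside 13.6%). Of the 16 members with a window whose liver libraries all lay above, 3 held an E-box (18.8%) and 3 the NRF1 motif (18.8%). Base composition was not matched between members and all windows, and these shares describe letters, not binding.

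The Y-shaped scaffold, which shapes the outer rings of the pore and is among the first parts set on chromatin after mitosis, had positive log2 fold changes in the 6 genes that the symbol rule takes in, and in 5 the tissues did not overlap. Of its further components measured, Seh1l stood higher without overlap (0.20), Sec13 overlapped (0.14, limma adjusted p = 0.56) and Ahctf1 overlapped with a negative value (-0.23, adjusted p = 0.60). Nup107 had normalized counts of 1478, 1434 and 1323 in liver against 1226, 1108 and 1160 in bone marrow, a log2 fold change of 0.28 ± 0.074 (SE, limma adjusted p = 0.14). Its partner Nup133 had 1223, 1328 and 1335 in liver against 1088, 1139 and 1033 in bone marrow (0.25 ± 0.072, adjusted p = 0.16). Nup85, a subunit in an arm of the Y, had 2571, 2595 and 2759 in liver against 2287, 2313 and 2362 in bone marrow (0.19 ± 0.055, adjusted p = 0.17). In each of these genes the tissues did not overlap. Nup37 and Nup43, small members of the complex, also did not overlap, with log2 fold changes of 0.24 and 0.36. The sixth gene, Nup160, overlapped, with 1380, 1096 and 1150 in liver against 1160, 1175 and 1118 in bone marrow, where liver replicate 1 alone stood above the marrow. The summed level of the 6 genes was 7857 ± 77.3 normalized counts in liver and 6802 ± 72.2 in bone marrow (SD, n = 3 each), or 15.5% more in liver.

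The inner ring, which lines the pore at the membrane, showed a similar order. Nup93, the adaptor that ties the ring together, had normalized counts of 1844, 1673 and 1745 in liver against 1438, 1528 and 1579 in bone marrow (log2 fold change 0.21 ± 0.068, limma adjusted p = 0.20). Nup188, a large ring protein, had 1059, 1067 and 1022 in liver against 936, 812 and 961 in bone marrow (0.22 ± 0.084, adjusted p = 0.27). Neither gene overlapped between the tissues. Nup35, which contacts the membrane, had 187, 151 and 172 in liver against 142, 129 and 126 in bone marrow, also without overlap (0.35 ± 0.15, adjusted p = 0.32). It is the least abundant of these, with 438 liver and 479 bone marrow reads. Nup205 also did not overlap (log2 fold change 0.15). Nup155 varied more with the replicate than with the tissue, at 1040, 940 and 719 in liver against 941, 963 and 639 in bone marrow, with replicate 3 lowest in both. Nup205, Nup155, Nup37, Nup43 and Nup160 are given after their values were seen.

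In the channel, Nup62, the central repeat-bearing protein, had normalized counts of 2823, 2892 and 2712 in liver against 2524, 2422 and 2421 in bone marrow. All liver libraries lay above, at a log2 fold change of 0.19 ± 0.054 (SE, limma adjusted p = 0.15). Its partner Nup54 had 721, 617 and 730 in liver against 611, 560 and 641 in bone marrow, and liver replicate 2 fell within the range of the marrow (0.19 ± 0.10, adjusted p = 0.43). Exons of Nup62 share bases with Atf5 and Il4i1 in GENCODE M21, and the library kit does not mark strand, so these reads may also be mixed. The same holds for Nup133, Nup188, Nup35, Nup88, Nup214, Tpr, Kpnb1 and Ipo11, whose exons also share bases with other genes.

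Of the 3 genes of the cytoplasmic face, 1 stood lower in liver without overlap and 2 overlapped. Ranbp2, the giant protein of the cytoplasmic filaments that binds Ran and acts as a SUMO ligase, had normalized counts of 1969, 1828 and 1895 in liver against 2206, 2122 and 2135 in bone marrow. All liver libraries lay below all bone marrow libraries, at a log2 fold change of -0.18 ± 0.057 (SE, limma adjusted p = 0.19). It was the only member with that order, 2% of the members beside 10.9% of all genes. The 95% interval ran from -0.32 to -0.05. Under the alternatives the adjusted p ran from 0.014 to 0.88. Only 1 of 20 passed, the fit with weights per library, whose weights did not reach their convergence tolerance. Nup88 had 1489, 1684 and 1559 in liver against 1562, 1430 and 1463 in bone marrow, and Nup214, its partner in the docking of export complexes, 1708, 1571 and 1431 in liver against 1590, 1522 and 1764 in bone marrow. Both overlapped, with log2 fold changes of 0.09 and -0.05 (adjusted p = 0.63 and 0.84), and that of Nup214 was 0.01 when either library numbered 3 was left out. The difference between Ranbp2 and the scaffold genes was not tested.

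No basket or membrane gene passed the limma test over all genes, and only in Tpr did the tissues not overlap. Tpr, the large coiled-coil protein of the nuclear basket, had normalized counts of 3765, 3725 and 3609 in liver against 3578, 3459 and 3455 in bone marrow. These did not overlap, but the log2 fold change was 0.08 ± 0.048 (SE, limma adjusted p = 0.48). Nup153 had 1782, 1959 and 1833 in liver against 1634, 1828 and 1811 in bone marrow. Nup50, a basket cofactor of importin alpha, had 1786, 1765 and 1701 in liver against 1727, 1811 and 1488 in bone marrow. Both overlapped, with log2 fold changes of 0.08 and 0.07 (adjusted p = 0.64 and 0.75). The membrane protein Nup210 had 5714, 6626 and 5657 in liver against 7194, 6182 and 6079 in bone marrow, where bone marrow replicate 1 was highest (-0.11 ± 0.088, adjusted p = 0.60). Its paralog Nup210l was scarce, with 28.7, 59.7 and 26.5 in liver against 25.1, 32.5 and 58.0 in bone marrow. It had 93 liver and 144 bone marrow reads, and its interval of -1.05 to 1.00 leaves a difference of either sign undetected at this depth.

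Among carriers, Kpnb1, Kpna2 and Xpo1 had the smallest unadjusted limma p of their kinds. With Ipo11 they were the 4 of 25 carriers whose liver libraries all lay above (16%, beside 11.4% of all genes). None of the 4 passed the limma test over all genes. Kpnb1, importin beta, the carrier of the classical import pathway, had normalized counts of 1987, 2058 and 1892 in liver against 1689, 1504 and 1692 in bone marrow. The tissues did not overlap, with means of 1979 ± 83.5 in liver and 1629 ± 107 in bone marrow (SD, n = 3 each) and a log2 fold change of 0.28 ± 0.071 (SE, limma adjusted p = 0.12). Kpna2, an importin alpha abundant in dividing cells, had 2906, 3136 and 3199 in liver against 2752, 2728 and 2672 in bone marrow, again without overlap (0.18 ± 0.057, adjusted p = 0.20). A processed copy, Kpna2-ps, could take some of its reads and had 24.2 to 40.5 in liver and 28.7 to 31.2 in bone marrow. Xpo1, or CRM1, the exporter of proteins with leucine-rich export signals, had 3502, 3299 and 3138 in liver against 2833, 2778 and 2675 in bone marrow. Its liver libraries all lay above, with means of 3313 ± 183 in liver and 2762 ± 80.3 in bone marrow (SD, n = 3 each) and a log2 fold change of 0.26 ± 0.060 (SE, limma adjusted p = 0.099).

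The other importins showed no common order. Kpna6 had normalized counts of 476, 335 and 430 in liver against 407, 470 and 529 in bone marrow, with overlap (log2 fold change -0.19 ± 0.16, limma adjusted p = 0.63). Kpna4 had 1017, 1077 and 989 in liver against 1095, 983 and 1147 in bone marrow (-0.06 ± 0.082, adjusted p = 0.76). Over the 7 importin alpha genes, 4 log2 fold changes were positive and 3 negative, with a median of 0.04. In the importin beta family, Ipo11 had 2401, 2075 and 2045 in liver against 2023, 1991 and 1829 in bone marrow, where the tissues did not overlap by a narrow margin (0.16 ± 0.081, adjusted p = 0.42). Ipo5, an importer of ribosomal proteins and histones, had 3227, 2442 and 2686 in liver against 2579, 2261 and 2386 in bone marrow, and liver replicate 2 lay within the marrow range (0.20 ± 0.11, adjusted p = 0.43). Of the 11 genes, 7 log2 fold changes were positive and 4 negative, with a median of 0.08. The 95% intervals of the transportin genes Tnpo1, Tnpo2 and Tnpo3 were -0.06 to 0.28, -0.31 to 0.23 and -0.13 to 0.28, so differences up to those bounds could not be told from none.

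The exportins other than Xpo1 overlapped between tissues. Cse1l, which returns importin alpha to the cytoplasm, had normalized counts of 2817, 2495 and 2555 in liver against 2603, 2315 and 2260 in bone marrow (log2 fold change 0.13 ± 0.077, limma adjusted p = 0.47). Xpo6, the exporter of actin, had 2517, 2116 and 2246 in liver against 2714, 2433 and 2559 in bone marrow, with overlap (-0.17 ± 0.080, adjusted p = 0.38). Xpo5, which exports microRNA precursors, varied widely within both tissues, at 1498, 1291 and 1113 in liver against 1384, 1122 and 921 in bone marrow, with replicate 1 highest and replicate 3 lowest in each. It was chosen after its values were seen, and its log2 fold change of 0.20 ± 0.16 had an adjusted p of 0.63. The tRNA exporter gene Xpot, Xpo4 and Xpo7 had log2 fold changes of 0.10, 0.08 and 0.04.

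Differences between tissues were small, and single libraries of a tissue also differed. The median absolute log2 difference between tissue means over the 50 members was 0.14. The median range from lowest to highest of the 3 libraries was 0.21 in liver and 0.16 in bone marrow. A range of single libraries and a difference of means are unlike measures, so these values do not show whether the tissues differ. In 16 members the tissue difference exceeded the range in both tissues. The share of all genes for which this holds was not computed, so the count cannot be called high or low. Liver replicate 1 held the highest value of all 6 libraries in 22 members, liver replicate 2 in 12 and liver replicate 3 in 5, and the 3 bone marrow libraries in 3, 4 and 4. The median deviation of the members from their own means was 0.117, 0.057 and 0.007 on the log2 scale in liver replicates 1, 2 and 3, and -0.053, -0.084 and -0.070 in bone marrow. For all tested genes that median was between 0.004 and 0.007 in each library. Summed over the members, the libraries held normalized counts of 94872, 93242 and 90915 in liver against 87649, 84377 and 84623 in bone marrow, with no overlap and 8.72% more in liver. Abundant genes weigh most in this sum. The 4 Ran cycle genes summed to 18.2% more in liver, the nucleoporins to 5.44% and the carriers to 7.14%.

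**Figure D3:**
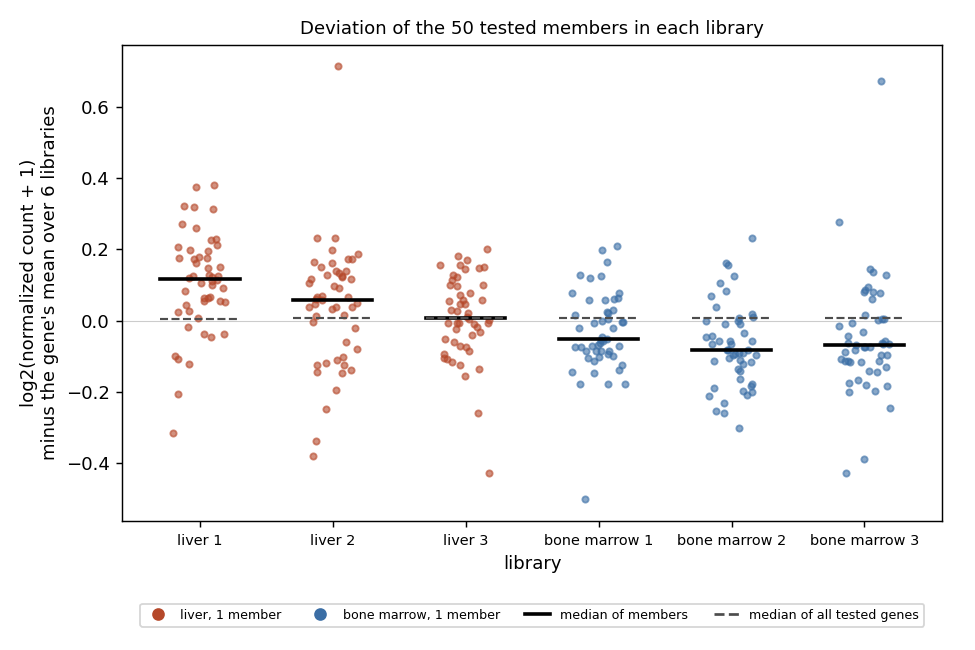
Deviation of each of the 50 tested members from its own mean over the 6 libraries, on the log2(normalized count + 1) scale, with 1 point per member and library, liver libraries on the left. Solid lines give the median of the members and dashed lines that of all tested genes, and the members' median is highest in liver replicate 1 (0.117) and near 0 in liver replicate 3 (0.007).

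Levels within the family spanned a wide range per kb of exon in GENCODE M21, which may not be the annotation behind the counts and whose merged exons include rare isoforms. Mean levels were highest for Ranbp1 (3790 normalized counts per kb in liver and 3230 in bone marrow) and Ran (3390 in liver and 2830 in bone marrow). Kpna2 followed (1070 in liver and 946 in bone marrow) and led the carriers, ahead of Cse1l (497 in liver and 454 in bone marrow), Ipo5 (464 and 401 in the same order) and Xpo1 (461 in liver and 385 in bone marrow). Of the nucleoporins, Nup62 (984 in liver and 860 in bone marrow) and Nup85 (780 in liver and 685 in bone marrow) were highest, and of those tested Nup210l was lowest (6.69 in liver and 6.74 in bone marrow). These levels were chosen for mention after they were seen.

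**Figure D4:**
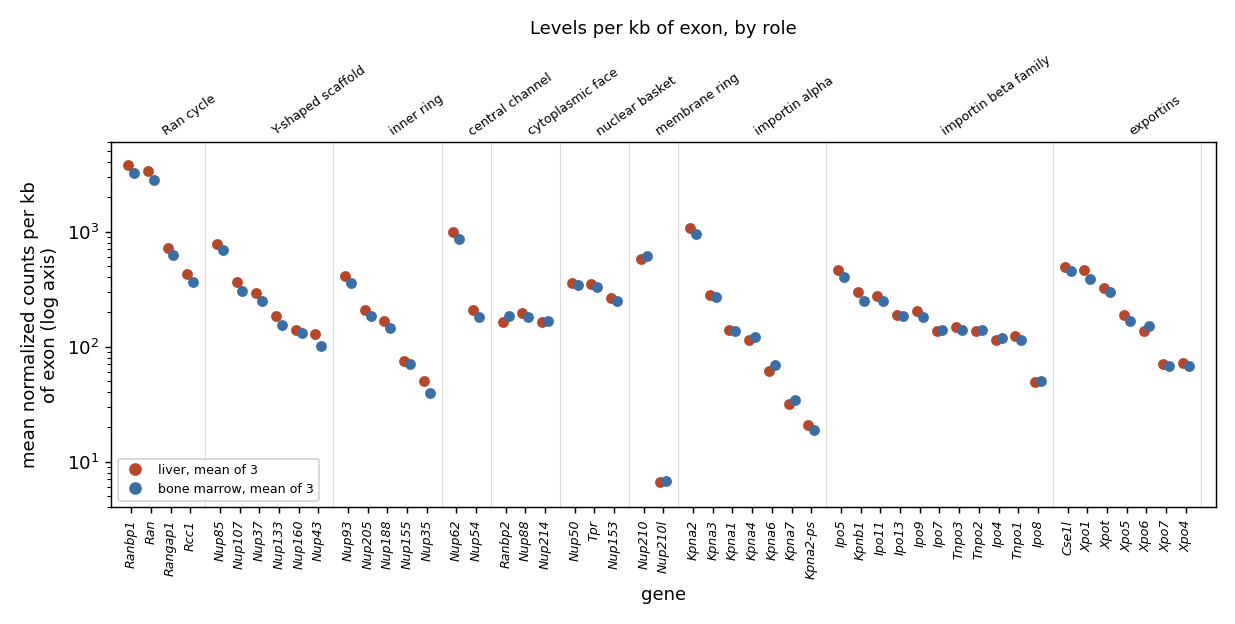
Mean normalized counts per kb of merged exon for the 50 tested members on a log axis, grouped by role, with liver as the left and bone marrow as the right point of each gene (mean of 3 libraries, no error drawn). Ranbp1 and Ran lie highest, at 3790 and 3390 in liver, and Nup210l lowest, at 6.69.

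Other genes of nuclear transport were less uniform than the scaffold and the Ran cycle by these counts, but close to the carriers among the members. The scaffold and the Ran cycle were the roles with the largest shares without overlap in these same data, and no test compared the groups. Of 30 such genes listed, 29 were tested, 0 passed over all genes in limma, edgeR or DESeq2, 3 were higher and 0 lower at an unadjusted p under 0.05 (beside 7.65% and 8.04% of all genes), and the median log2 fold change was 0.07. In 6 of the 29 all liver libraries lay above, and in 1 below, beside 11.4% and 10.9% of all genes. Of the 25 carriers among the members, 4 lay above and 0 below, with a median log2 fold change of 0.08. Alyref, which couples transcription to mRNA export, had normalized counts of 4153, 4081 and 3999 in liver against 3690, 3556 and 3550 in bone marrow (0.18 ± 0.048, limma adjusted p = 0.14). Of the further scaffold genes, Seh1l had 1832, 1959 and 1984 in liver against 1698, 1653 and 1667 in bone marrow (0.20 ± 0.059, adjusted p = 0.17). Sec13, which is also a coat protein of transport vesicles, had 1930, 2303 and 2149 in liver against 1733, 2105 and 1971 in bone marrow, with overlap. Ahctf1, or ELYS, which brings the scaffold to chromatin, had 1682, 1045 and 1061 in liver against 1369, 1399 and 1576 in bone marrow, where liver replicate 1 lay above the marrow and the other liver libraries below it. Ncbp2, the cap-contacting subunit of the nuclear cap-binding complex, had 966, 1012 and 1027 in liver against 814, 915 and 868 in bone marrow (0.21 ± 0.075, adjusted p = 0.24). In Alyref, Seh1l and Ncbp2, the 3 genes with an unadjusted p under 0.05, the tissues did not overlap.

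Genes of proliferation also stood higher in liver. In 20 of 20 such markers (beside 11.4% of all genes) all liver libraries lay above all those of bone marrow, with a median log2 fold change of 0.30 and summed normalized counts of 58884, 65372 and 60906 in liver against 50650, 50180 and 49766 in bone marrow. Of the 20, Mcm5 (0.41) and Cdc45 (0.55) rose (limma adjusted p = 0.040 each, beside 0.420% of all genes) and 18 did not pass. DESeq2 called 11 of the 20 higher, beside 1.92% of all genes, and edgeR 2, beside 0.371%. Within liver the proliferation sum was highest in replicate 2 and the sum of the members in replicate 1. Within bone marrow both sums were highest in replicate 1. The part of proliferation in the members' values was not tested, and in bulk RNA a larger share of dividing cells and more RNA per cell cannot be told apart.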

How the data were processed

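Leukemia stem cells from liver and bone marrow were sequenced as 3 libraries per tissue, from RNeasy-extracted RNA with a SMARTer and Nextera XT low-input kit, per the labels' protocols. The deposited signal is a normalized count: the authors scaled each library's read counts by its DESeq2 size factor, as the table's name and the submitters' processing notes state. Those notes list STAR 2.6.0c, Trimmomatic 0.36 and bcl2fastq 2.19.0 besides R 3.4.1 and DESeq2 1.16.1. No build, annotation or read counter is named in the labels or headers used. Within 0.01, 100% of a library's values were whole multiples of the value of 1 read, so reads could be recovered.

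Here limma 3.58.1 (R 4.3.3) tested tissue, two-sided, with a variance trend, on log2(normalized count + 1) of genes averaging at least 10, and an adjusted p under 0.05 was a call. Intervals are limma's at 95%. Fold changes on this scale understate the change of low genes. As alternatives, edgeR 4.0.16 and DESeq2 1.42.0 ran on the recovered reads, and the closing section gives the others. On simulated data the fit recovered 40.8% of 1.5-fold and 88.0% of 2-fold changes. No smaller change was simulated, and the largest fold of liver over bone marrow among members was 1.28. How often the fit would call changes of the members' size is therefore not known. The members and lists were chosen with earlier results of these data known. Values per library are given for the 3 members of each role with the smallest unadjusted p. The symbol rule leaves out 1 numbered Nup gene, which is not reported here, and nucleoporins with other symbols, some of which are among the other transport genes. Promoters came from RefSeq (GRCm38.p6, 40 of 51 members matched by symbol) and exons from GENCODE M21 (GRCm38). Figures were drawn with matplotlib 3.10.9.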

Additional observations from a re-analysis of the deposited data

How the results depend on the processing

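The count of members passing the test was 0 higher and 0 lower with TMM factors, a pseudocount of 0.5 or 10, the filter dropped or raised to a mean of 50, robust moderation, edgeR on recovered reads, thinning to equal depth, and both libraries numbered 3 left out, fits that, with those leaving out 1 library other than liver replicate 1, called 0% to 0.463% of all genes higher. It was 1 higher with quantile normalization (Ran), 4 higher with DESeq2 on recovered reads, and 14 higher and 2 lower (Xpo6 and Ranbp2) with array weights, a fit that called 11.0% of all genes higher and 11.5% lower and whose weights did not reach their convergence tolerance. The cause was not tested. Leaving out 1 library in turn gave 0 to 2 higher and 0 lower, the 2 being Ran and Ranbp1 without liver replicate 1. The replicate numbers were tried as a term: deviations of same-numbered libraries correlated at 0.443, 0.399 and 0.058 over all tested genes for numbers 1, 2 and 3, so not every pair passed the 0.1 set for pairing, while sex-linked transcripts put the numbers in the same order in both tissues. Whether libraries with the same number share an animal is not known. With that replicate block 3 members were higher (Ran, Xpo1 and Ranbp1) beside 1.41% of all genes, and with the block and without both libraries numbered 3 the count was 0.

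The members' median log2 fold change was 0.090 to 0.148 when 1 library was left out. The count of members whose liver libraries all lay above was 19 with TMM factors and with quantile normalization, 18 after thinning and 23 with both libraries numbered 3 left out, alternatives chosen after seeing the data. Of the 28 members given in full, 24 kept their sign in every alternative. Kpna4 had 0.01 without both libraries numbered 3, with or without the block. Nup210l had 0.52 in those 2 fits, 0.04 with quantile normalization, between -0.38 and 0.31 when 1 library was left out, with 0.13 and 0.19 without liver replicates 1 and 3 and 0.31 without bone marrow replicate 3. Nup214 had 0.07 in the same 2 fits and -0.11 to 0.01 when 1 library was left out (0.01 without liver or bone marrow replicate 3), and Nup50 -0.01 without bone marrow replicate 3. Depth limits the scarce members, and counting limits cover counting error only.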
